A study of Homo sapiens with 6 samples.

Results

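The enzymes described here are the 10 that run the methionine cycle, the methionine salvage route and transsulfuration: *MAT2A*, *AHCY*, *MTR*, *CBS*, *CTH*, *MTAP*, *MRI1*, *APIP*, *ENOPH1* and *ADI1*. They were taken by gene symbol, and each symbol matched 1 row, 10 of the 31369 genes in the count table and of the 30896 genes in the FPKM table. RNA sequencing was done on HK-2, an immortalized human cell line derived from the proximal tubule of the kidney, in 3 control samples (NC, genotype entered as WT) and 3 samples transfected with a *PPM1K* plasmid (OE, genotype entered as PPM1K overexpress). *PPM1K* encodes the mitochondrial phosphatase that activates branched-chain amino acid breakdown. The labels of all 6 samples share the time entry Day 10 and the treatment entry Chronic kidney disease, and their titles read shControl and shPPM1K, while the study's methods describe a plasmid and lipid transfection with no disease treatment. The number in the cell line name also changes from sample to sample in some entries. The genotype entry was used, and the data come from 1 cell line. The study's methods do not say what the control cells received. The study speaks of its replicates as biological, but neither its methods nor the labels say how they were made or that they were separate cultures. The p-values measure the spread between these samples.

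Methionine is turned into S-adenosylmethionine (SAM), the donor of methyl groups, by methionine adenosyltransferase. Once its methyl group is spent, the product is split to homocysteine, which is either methylated back to methionine or, by transsulfuration, joined to serine and cut to give cysteine for glutathione. The part of SAM that is used for polyamines leaves methylthioadenosine, whose methylthio group is returned to methionine by the salvage enzymes. In the kidney, the proximal tubule is a known site of transsulfuration and of homocysteine removal.

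Listed by replicate 1 to 3 here and below, the *PPM1K* counts were 37, 19 and 53 in NC against 3294, 3531 and 2919 in OE, and these do not separate plasmid from cellular transcripts. Counts summed over all genes ranged from 34635770 to 36116963 for NC and from 36033404 to 39850802 for OE. NC replicate 2 stood apart, with a count at 26478 genes against 22094 to 22913 in the other samples. In the study's read distribution it also had the largest shares of intronic, intergenic and antisense reads. Every NC sample had larger shares of these reads than every OE sample, and their part in the results was not tested. OE replicate 3 was the farthest from its group in counts, with a mean chi-square per gene of 11.7 and 10.6 against OE replicates 1 and 2, which differed from each other by 6, and NC pairs by 5.12 to 7.13. The label of the cell line was set against marker genes. None of 7 proximal tubule markers reached 1 FPKM in every sample. *LRP2*, *CUBN* and *AQP1* were under 0.1 FPKM in all samples, and the other 4 reached that level in some sample. The FPKM of the 7 summed to 0.48 to 0.73 in NC and to 0.36 to 0.42 in OE. In contrast, 6 of 8 general kidney epithelial markers did reach 1 FPKM in every sample. Their summed FPKM was 799 to 893 in NC and 677 to 734 in OE, and its part in the results below was not tested. The defining markers of loop and collecting duct were all under 0.1 FPKM, as were *PTPRC* and *CD3E* of blood cells, while the 1 other blood cell marker reached that level. All 3 endothelial markers reached 0.1 FPKM in some sample, and their sum was 0.52 to 0.69 in NC and 0.73 to 0.87 in OE. Of 3 fibroblast and mural markers 2 did, without *PDGFRB*, and the sum was 1.5 to 1.69 in NC and 0.87 to 1.34 in OE. No endothelial, fibroblast or mural marker reached 1 FPKM in every sample. The part of these markers in the results was not tested either. In such bulk RNA, fewer cells of a type and less RNA per cell cannot be told apart.

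The enzymes did not move as a block. All 10 passed the filter on low counts. At an adjusted p under 0.05 from edgeR (its log2 fold changes are given below with their standard error, SE), *ENOPH1*, *CTH* and *CBS* were higher in OE and *MRI1*, *ADI1* and *AHCY* were lower, while *MAT2A*, *MTR*, *MTAP* and *APIP* did not pass the test. The 3 of 10 higher stand beside 24.9% of all 15878 tested genes, and the 3 of 10 lower beside 23.7%, so both shares lie near the background. With a fold change above 2 as well, 2 enzymes were called higher, *CTH* and *ENOPH1*, where 1.73% of tested genes were. The enzymes were chosen with earlier results of these data known, so this is a description. None was called lower with a fold change below 0.5, where 3.79% of tested genes were. The samples of the groups did not overlap in CPM, the counts scaled to the effective library size in edgeR, for 5 of the 10 enzymes and for 55.3% of all tested genes. The median log2 fold change of the 10 was −0.03, and that of all tested genes −0.0032.

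**Figure D1:**
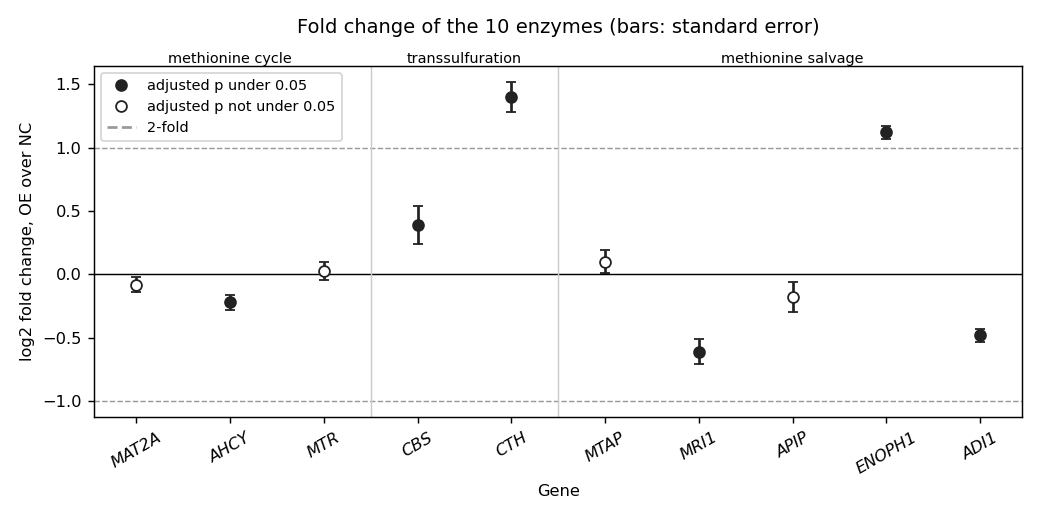
The log2 fold change of OE over NC from edgeR (vertical axis) for the 10 enzymes (horizontal axis), ordered by pathway, with standard errors as bars, filled points for an adjusted p under 0.05 and dashed lines at 2-fold. CTH at 1.40 and ENOPH1 at 1.12 lie above the upper dashed line, and MRI1 at −0.61 is the lowest point.

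*CTH* had the larger of the 2 fold changes. It encodes cystathionine gamma-lyase, the second enzyme of transsulfuration, which releases cysteine. The gene (ENSG00000116761.12) lies at chr1:70411218-70439851 on the plus strand in GENCODE release 44 on GRCh38 and has 12 exons in its canonical transcript. A small Metazoa_SRP RNA gene lies inside it and shares no exonic base with it. Its counts were 107, 99 and 123 in NC against 284, 332 and 310 in OE. Each OE sample had more than double the count of any NC sample, whichever pair was compared. In deposited FPKM, fragments scaled to gene length and sequencing depth, NC stood at 1.19 ± 0.125 and OE at 3.18 ± 0.221 (SD, n = 3 each). The rise was 2.64-fold, or 1.40 in log2 (SE 0.12, adjusted p = 8.7e-09 from edgeR). With each sample left out in turn it stayed between 1.34 and 1.48. On log2(FPKM + 1), which shrinks low values, *CTH* came to 0.93, below a 2-fold change, and still passed the test in limma.

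*CBS* encodes cystathionine beta-synthase, which opens transsulfuration by joining homocysteine to serine. It (ENSG00000160200.18) lies at chr21:43053191-43076943 on the minus strand and overlaps no other annotated gene. Its reads have a special difficulty. GRCh38 holds a second copy of the locus, listed in the deposited tables as *CBSL* (ENSG00000274276.4) and tagged in GENCODE release 44 as an artifactual duplication of *CBS*, at chr21:6444869-6467513. The canonical transcripts of the copies are identical at 2494 of 2495 bases. The fourth exon of that transcript has 107 coding bases, at chr21:43068509-43068615 and again at chr21:6460187-6460293 on the minus strand. It is shown because its sequence is the same in both places, though a read can extend past it.

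CBS and CBSL, exon 4: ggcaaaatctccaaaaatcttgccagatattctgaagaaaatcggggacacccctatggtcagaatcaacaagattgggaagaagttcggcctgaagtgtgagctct

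The authors counted only uniquely mapped reads, and a read inside identical sequence has no unique place. The part of this in the values below was not tested. By the search used here, 88.1% of the canonical *CBS* transcript has a copy elsewhere on the main chromosomes, at 98% identity over at least 50 bases, while the other members have at most 7.3%. The search leaves out shorter stretches. The remainder of *CBS* is not unique sequence, as the canonical transcripts of *CBS* and *CBSL* are identical at 2494 of 2495 bases.

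*CBS* was counted 129, 127 and 141 times in NC against 209, 203 and 141 times in OE. OE replicate 3 equalled NC replicate 3, so the groups met. Its change was 0.39 in log2 (SE 0.15, adjusted p = 0.035 from edgeR). That call was lost in 9 of 16 alternatives, among them DESeq2 with an adjusted p of 0.09. The edgeR adjusted p was 0.078 without NC replicate 1, 0.085 without NC replicate 2, 0.17 without OE replicate 1 and 0.096 without OE replicate 2. *CBSL* was counted 137, 122 and 111 times in NC and 185, 213 and 181 times in OE. Every OE sample of *CBSL* was above every NC sample, with 0.55 in log2 (SE 0.14, adjusted p = 0.002 from edgeR). When the rows were summed, the counts were 266, 249 and 252 in NC and 394, 416 and 322 in OE, with no overlap between the groups. The sum gave 0.47 in log2 (SE 0.10, adjusted p = 8.6e-04 from edgeR).

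**Figure D2:**
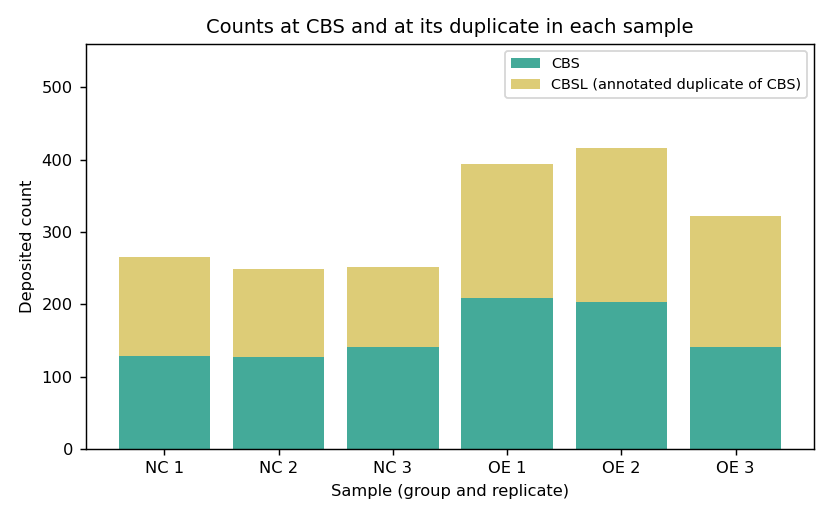
Deposited counts (vertical axis, from 0) in each of the 6 samples (horizontal axis), with CBS and its annotated duplicate CBSL stacked. The summed bars reach 249 to 266 in NC and 322 to 416 in OE, and in OE replicate 3 the CBS part alone is as high as in NC replicate 3, at 141.

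In the methionine cycle, no enzyme rose and 1 of 3 fell, beside 24.9% and 23.7% of all tested genes, and 3 genes are too few to read against those shares. *MAT2A* encodes the catalytic subunit of the methionine adenosyltransferase found outside the liver, which makes SAM, and splicing of its transcript is known to respond to the SAM supply. It (ENSG00000168906.13) lies at chr2:85539168-85545281 on the plus strand, and 562 exonic bases are shared with *GGCX* on the other strand. Its counts were 4991, 5707 and 5040 in NC against 5536, 5093 and 5226 in OE. The samples of the groups were mixed, with NC replicate 2 the highest of the 6. OE differed from NC by −0.08 in log2 (SE 0.06, adjusted p = 0.32 from edgeR), a value that was between −0.12 and −0.01 in all alternatives.

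*AHCY* encodes adenosylhomocysteinase, which splits S-adenosylhomocysteine, the product left by methylation with SAM, into homocysteine and adenosine. It (ENSG00000101444.13) lies at chr20:34280268-34311802 on the minus strand and shares 139 exonic bases with a lncRNA gene on the same strand. NC stood at 99.6 ± 6.07 CPM and OE at 85.4 ± 4.25 CPM (SD, n = 3 each), from counts of 3430, 3311 and 3814 in NC and 3268, 3447 and 2927 in OE. Once scaled to the library, every OE sample was below every NC sample, although the raw counts overlapped. This fall was −0.22 in log2 (SE 0.06, adjusted p = 0.0027 from edgeR). *MTR* encodes methionine synthase, which methylates homocysteine back to methionine with folate and cobalamin. It (ENSG00000116984.15) lies at chr1:236795260-236921278 on the plus strand. It was counted 2693, 2925 and 2961 times in NC and 2820, 3079 and 3385 times in OE. The library-scaled values of the groups overlapped, and OE replicate 3 was the highest sample. For *MTR* the difference was 0.03 in log2 (SE 0.07, adjusted p = 0.76 from edgeR), and without OE replicate 3 it was −0.07.

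**Figure D3:**
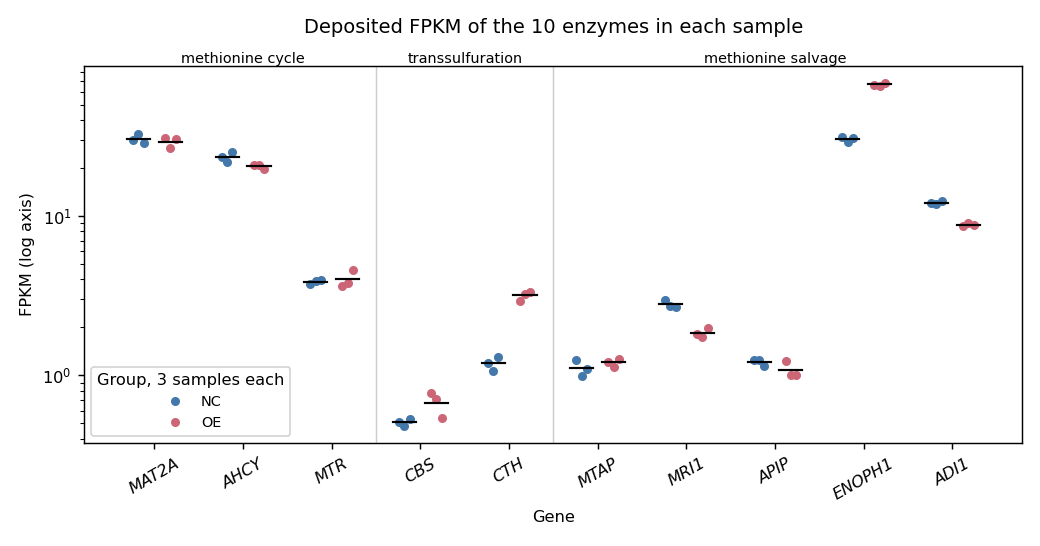
Deposited FPKM on a log axis (vertical) of each of the 10 enzymes (horizontal) in 3 NC and 3 OE samples, 1 point a sample, with a line at the mean of the group. ENOPH1 goes from 29.2 to 31.1 in NC up to 65.8 to 68.5 in OE, while ADI1, the next enzyme of the route, goes from 11.9 to 12.4 down to 8.65 to 8.99.

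Of the 5 salvage enzymes, 1 rose, 2 fell and 2 did not pass the test, beside 24.9% higher and 23.7% lower among all tested genes. Again, 5 genes are too few to read against those shares. *ENOPH1* encodes the enolase-phosphatase that converts the salvage intermediate in 2 steps to the acireductone. It (ENSG00000145293.16) lies at chr4:82430590-82461177 on the plus strand, overlaps no other annotated gene and had no copy elsewhere in the search. Its counts were 2422, 2360 and 2502 in NC against 5568, 5791 and 5477 in OE. All OE samples were far above all NC samples, and the replicates of a group lay close together. NC stood at 30.4 ± 1.02 FPKM and OE at 67 ± 1.4 FPKM (SD, n = 3 each). *ENOPH1* rose by 1.12 in log2 (SE 0.05, adjusted p = 1.4e-13 from edgeR), and this lay between 1.08 and 1.14 in every alternative.

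*ADI1* encodes acireductone dioxygenase, which acts on the product of the *ENOPH1* enzyme and yields the keto acid of methionine. It (ENSG00000182551.14) lies at chr2:3497366-3519531 on the minus strand and shares 63 and 164 exonic bases with a pair of lncRNA genes on the other strand. Its counts were 2406, 2459 and 2593 in NC against 1857, 2032 and 1793 in OE. Every OE sample was below every NC sample. *ADI1* changed by −0.48 in log2 (SE 0.05, adjusted p = 1.8e-07 from edgeR). The count ratio of *ENOPH1* to *ADI1* inside a sample, in which no library scaling enters, was 1.01, 0.96 and 0.965 in NC and 3, 2.85 and 3.05 in OE. These adjacent steps of the route thus moved apart in transcript level. The pair was chosen after its values were seen, and the ratio was not tested.

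*MRI1* (ENSG00000037757.14) encodes the isomerase of methylthioribose-1-phosphate, at chr19:13764522-13774282 on the plus strand, with 1078 exonic bases shared with a lncRNA gene on the other strand. Its counts were 385, 365 and 363 in NC against 253, 255 and 265 in OE. The groups did not overlap, and the change of −0.61 in log2 (SE 0.10, adjusted p = 3.2e-05 from edgeR) was the lowest of the 10 enzymes. *MTAP* (ENSG00000099810.21) encodes the phosphorylase that opens the route by cutting methylthioadenosine, at chr9:21802636-21937651 on the plus strand, a gene lost in many tumour lines. It shares 460 and 684 exonic bases with genes on its own strand and 257 with 1 on the other. It was transcribed here, with counts of 672, 556 and 620 in NC and 712, 691 and 700 in OE. The library-scaled values overlapped (0.10 in log2, SE 0.09, adjusted p = 0.36 from edgeR). *APIP* (ENSG00000149089.13) encodes the dehydratase before *ENOPH1*, at chr11:34853094-34916379 on the minus strand, and shares 152 exonic bases with *PDHX*. It was counted 243, 250 and 232 times in NC and 257, 222 and 200 times in OE, with values that overlapped (−0.18 in log2, SE 0.12, adjusted p = 0.21 from edgeR). The sources used here do not say if strand was used when reads were counted. Reads in exonic bases shared with a gene on the other strand thus cannot be assigned to either gene with certainty. For bases shared on the same strand, as at *AHCY* and *MTAP*, strand could not separate the genes in any case.

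For a single enzyme, the exact two-sided permutation test on CPM gave 0.1 for *CTH*, *ENOPH1*, *AHCY*, *MRI1* and *ADI1*, the smallest p that 3 samples against 3 allow, and 0.2 for *CBS* and *APIP*. It gave 0.4 for *MTAP*, 0.6 for *MAT2A* and 0.9 for *MTR*.

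In levels per length, the 10 enzymes spanned a wide range. In NC, *MAT2A* at 30.5 FPKM and *ENOPH1* at 30.4 FPKM led and overlapped over the samples. *AHCY* at 23.6, *ADI1* at 12.1, *MTR* at 3.87 and *MRI1* at 2.79 FPKM followed, each apart from the next. *APIP* at 1.21, *CTH* at 1.19 and *MTAP* at 1.11 FPKM overlapped their neighbours in the order, and the *CBS* row at 0.507 FPKM was last. That row does not hold all reads of the gene, as its duplicate *CBSL* had 0.807 FPKM in NC and reads without a unique place were not counted. The place of *CBS* in the order is therefore uncertain. In OE, *ENOPH1* at 67 FPKM stood alone above *MAT2A* at 29.3 FPKM, and *CTH* at 3.18 FPKM had passed *MRI1* at 1.85 FPKM. *APIP* at 1.08 and *MTAP* at 1.2 FPKM overlapped in OE.

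The order depends on the length used. The deposited FPKM imply a length of 15562 bases for *MTAP*, 20612 for *MTR* and 5577 for *APIP*, near the union of all annotated exons, while the canonical transcripts have 6032, 10547 and 1246 bases. Per kilobase of the canonical transcript, *MAT2A* led in NC at 52.7 ± 4.21 CPM (SD, n = 3), apart from *AHCY* at 46.3 ± 2.82 and *ENOPH1* at 33 ± 0.705 CPM. On that scale *ADI1* at 32.3 CPM overlapped *ENOPH1* in NC, and *CTH* at 1.48 and the *CBS* row at 1.5 CPM were last and overlapped. The *CBSL* row had 1.4 CPM per kilobase in NC, and *MTAP* had 2.89. The rank of *CBS* thus holds for its own row only, not for the reads of both copies. In OE *ENOPH1* led on both scales, with 71.7 ± 1.2 CPM (SD, n = 3) per kilobase of canonical transcript.

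The bases before the start sites of *CTH* and *ENOPH1*, the 2 enzymes called higher, are shown from the RefSeq promoter table on GRCh38.p14, which held 15 promoters of the 10 enzymes. The *CTH* window is chr1:70411018-70411217 and the *ENOPH1* window chr4:82430340-82430589, both on the plus strand. The *CTH* window ends 50 bases short of the RefSeq start site, where GENCODE begins the gene. Capitals mark TGACG, the core of the site bound by ATF and CREB family factors, on either strand (CGTCA on the other).

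CTH: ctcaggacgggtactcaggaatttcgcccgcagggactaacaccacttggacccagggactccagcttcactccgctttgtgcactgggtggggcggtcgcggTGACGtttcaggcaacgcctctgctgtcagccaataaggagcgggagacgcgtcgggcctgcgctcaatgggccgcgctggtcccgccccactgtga

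ENOPH1: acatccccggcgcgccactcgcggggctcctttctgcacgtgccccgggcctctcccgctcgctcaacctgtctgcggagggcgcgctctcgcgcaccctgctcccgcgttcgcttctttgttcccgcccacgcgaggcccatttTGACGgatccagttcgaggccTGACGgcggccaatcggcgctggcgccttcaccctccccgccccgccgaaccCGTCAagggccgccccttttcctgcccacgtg

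In the 250 bases before a start site, TGACG was found at *CTH*, beginning 147 bases before the start, and at *ENOPH1*, at 105, 84 and, on the other strand, 32 bases before it. It was found in no promoter of the other 8 enzymes, which makes 2 of the 15 promoters of the enzymes. Among all 35116 promoters in the table, 21.2% held it in a window of that length. The motif was picked after these sequences had been read, so its presence in both genes is a description and was not tested. The letters TGATGNAA, the composite site of C/EBP and ATF factors, were in the 250-base window of none of the 10 enzymes and of 3.14% of all promoters. CCAAT was found in 9 of the 15 promoters, of 7 enzymes, *CTH* and *ENOPH1* among them, and in 32% of all promoters. Promoters of 1 gene can share bases.

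The pathway's other genes, 55 in a hand-written list, were read for the same comparison. The list was chosen with earlier results of these data known, so its counts beside all tested genes are a description. Of these, 52 were in the count table and 47 passed the filter. At the same threshold of 0.05 on the adjusted p, 19 rose, 12 fell and 16 did not pass the test. Over all tested genes 24.9% were higher and 23.7% lower, and the 12 of 47 lie near the latter. The same shares stand beside the counts of each gene group below. The median log2 fold change of the 47 was 0.09. *MAT1A*, the liver form of the SAM synthase, and *BHMT2*, *CDO1*, *GNMT* and *PNMT* were below the filter, and *BHMT*, *INMT* and *AS3MT* had no row under those symbols in the count table.

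Around the methionine cycle, 3 of 7 tested genes rose and none fell. *MTRR*, the reductase that keeps methionine synthase active, had 0.35 in log2 (SE 0.08, adjusted p = 0.0011 from edgeR). *ADK*, which removes the adenosine that *AHCY* releases, had 0.21, and *METTL16*, the RNA methyltransferase that controls *MAT2A* splicing, had 0.36. *MAT2B*, the regulatory partner of *MAT2A*, had −0.08 with an adjusted p of 0.37 from edgeR.

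In the polyamine branch, which feeds the salvage route, 4 of 10 genes rose and 3 fell, with 24.9% and 23.7% as the background. *ODC1*, which makes putrescine, went from 72.4 ± 2.67 to 144 ± 6.78 CPM (SD, n = 3 each), or 0.99 in log2 (SE 0.05, adjusted p = 3.2e-12 from edgeR), just under the 2-fold threshold. *SMOX*, a spermine oxidase, had 0.63 and *AMD1*, which decarboxylates SAM, had 0.52. Of the genes that break down cysteine and sulfide, 1 of 7 rose and 2 fell. *GOT1*, which transaminates cysteine sulfinate and aspartate, had 0.69, *CSAD*, which leads to taurine, −0.83 and *SUOX*, the sulfite oxidase, −0.28.

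Among enzymes that spend SAM on small molecules, 2 of 7 rose and 3 fell. *NNMT*, which methylates nicotinamide, was the 1 gene of all 47 called lower with a fold change below 0.5, where 3.79% of all tested genes were. It went from 134 ± 9.64 to 66.9 ± 4.88 CPM (SD, n = 3 each). This was a fold of 0.499 (adjusted p = 2.9e-11 from edgeR), only just below the threshold of 0.5. *HNMT*, which methylates histamine, had −0.95 and *ICMT*, which methylates prenylated proteins, 0.34. Among those that methylate DNA, RNA and proteins, 5 of 10 rose and 3 fell. *METTL3*, the catalytic subunit of the mRNA adenosine methyltransferase, had −0.91 (SE 0.10, adjusted p = 1.1e-07 from edgeR). *DNMT1*, the maintenance DNA methyltransferase, had 0.38 and *DNMT3A*, a de novo one, −0.31.

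Of 6 carriers of methionine, cystine and SAM, 4 rose and 1 fell (background 24.9% and 23.7%), and 3 were called higher with a fold change above 2 (background 1.73%). The carriers come from the same hand-written list, so these counts are a description too. *SLC7A11*, the cystine carrier, had a log2 fold change of 1.73, *SLC7A5*, a carrier of methionine and other large amino acids, 1.58, and *SLC3A2*, the chain both pair with, 1.40 (largest adjusted p of the 3, 3.2e-11 from edgeR). *SLC25A26*, which brings SAM into mitochondria, had 0.09 with an adjusted p of 0.48 from edgeR.

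**Figure D4:**
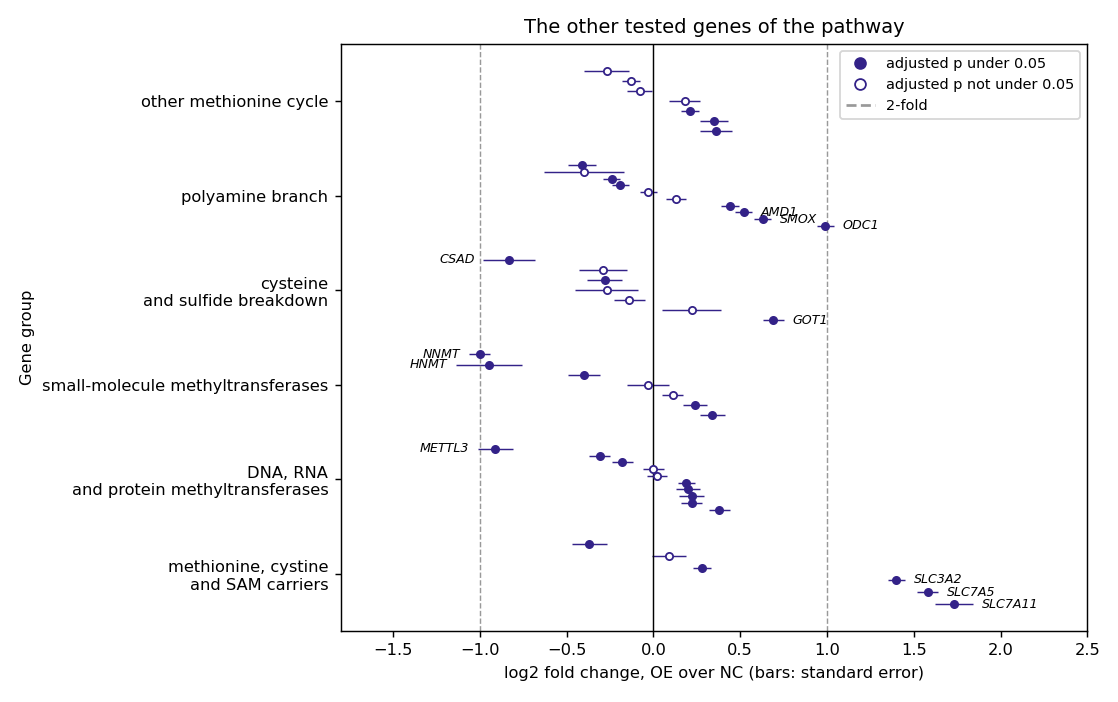
The log2 fold change of OE over NC from edgeR (horizontal axis) for the 47 tested genes around the pathway, in 6 groups (vertical axis), with standard errors as bars, filled points for an adjusted p under 0.05, names beside genes of at least 0.5 in size and dashed lines at 2-fold. The carriers SLC7A11, SLC7A5 and SLC3A2 lie at 1.40 to 1.73, and NNMT, with a fold of 0.499, is the lowest point.

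Likeness was measured to *CTH*, the enzyme with the largest fold change among those with a mean count of at least 100. The 5 tested genes whose log2 CPM over the 6 samples followed it most closely were *SET*, *MNAT1*, *MKNK2*, *RSL24D1* and LA16c-306E5.3, with Pearson's r of 0.9983 to 0.9996. A small constant was added to each CPM before the log was taken, which weighs most on low values such as those of *CTH*. The 6 points share libraries and 1 group difference. The fold changes of these genes were smaller, from 0.28 to 0.65 on the log2 scale.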

How the data were processed

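RNA from HK-2 cells, 3 NC and 3 OE samples, was read on an Illumina sequencer from stranded libraries. The authors trimmed the reads, aligned them to GRCh38 with HISAT2 and deposited counts of uniquely mapped reads per gene, without normalization. The deposited FPKM were computed by the authors from the same reads. The annotation, the counting program and its use of strand are not given in the sources used here. The labels also name mm10, which has no role here. Columns were matched to samples by the group and the number in the titles.

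The counts of all genes were tested with edgeR 4.0.16 in R 4.3.3 (filterByExpr, TMM, quasi-likelihood F-test, group as the only term), with Benjamini-Hochberg adjustment over 15878 genes. The threshold was 0.05 on the adjusted p, joined where stated by a fold above 2 or below 0.5. Standard errors come from the fold change and F. DESeq2 1.42.0 with its default filtering and limma 3.58.1 on log2(FPKM + 1) and log2(FPKM + 0.1), for genes of at least 0.1 FPKM in 3 samples, were alternatives, beside other normalizations and filters, a replicate block and each sample left out. DESeq2 had first been run with filtering tuned to 0.05 and was set back to the planned default after its counts were seen to differ from earlier known ones, and both are given. Replicates of a group differed by more than sampling noise, with a mean chi-square per gene of 5.12 to 11.7. At this depth the enzymes differ in precision, since *CBS* and *CTH* rest on far fewer counts than *MAT2A* or *ENOPH1*.

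Coordinates and exons are from GENCODE release 44, which held 99.8% of the gene identifiers without version. Copies were sought with BLAST 2.17.0. The members and gene lists were chosen with earlier results of these data known. Named are all members, *CBSL*, *PPM1K*, up to 3 genes of each other group by smallest adjusted p and those that could not be tested, and the 5 genes most like *CTH*. *MAT2B* and *SLC25A26* were added after their values were seen. Figures were drawn with matplotlib 3.10.9.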

Additional observations from a re-analysis of the deposited data

How the results depend on the processing

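Each enzyme was refitted under 15 alternatives, and *CBS* under 16, which gave 151 values. Of these, 140 kept their direction and their side of the threshold. In 9, all of *CBS*, the adjusted p was no longer under 0.05: DESeq2 with either filtering, upper quartile scaling, limma on both FPKM scales and the fits without NC replicate 1, NC replicate 2, OE replicate 1 or OE replicate 2. The *CBS* log2 fold change was 0.15 to 0.52 over its alternatives. *MTR*, which did not pass the test in any fit, turned to −0.01 with upper quartile scaling and to −0.07 without OE replicate 3, in a range of −0.07 to 0.08 with 1 sample left out. With limma on log2(FPKM + 1), a scale that shrinks low values, 1 enzyme in place of 2 was called higher with a fold change above 2, since *CTH* came to 0.93. The 3 enzymes lower in OE were lower under every alternative. Deviations from the group means were not shared between NC and OE samples of 1 number (mean correlation −0.0413), so the replicate numbers were not taken as pairs. With the replicate block, 3 enzymes were higher and 3 lower, 2 of them called higher with a fold change above 2, as without it. Of the other pathway genes, 17 to 19 were higher and 9 to 13 lower across the alternatives. With a fold change above 2 or below 0.5 as well, DESeq2 called 243 genes higher and 553 lower, against 274 and 601 in edgeR. At these thresholds limma called 56 and 69 on log2(FPKM + 1), and 186 and 382 on log2(FPKM + 0.1). DESeq2 with filtering tuned to 0.05, the unplanned setting that had been run first, called 237 and 527 at the same thresholds. It changed no call of an enzyme from the default, which was set after those counts were seen. *CTH*, *CBS* and *CBSL* rest on counts near 100 in NC.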
